A study of Mus with 50 samples.

Results

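Rabggtb and 4 noncoding genes that carry small nucleolar RNAs (snoRNAs) in their introns, Gas5, Snhg1, Snhg8 and Snhg12, were followed over the livers of 50 female mice. The 5 genes are a list among 22197 genes named on the array, selected on the Rabggtb signal of these livers, which changes with the number of the animal, and on the snoRNAs that the genes carry. Each mouse gave 1 Affymetrix whole-transcript array, and values are log2 signals. The mice came from a backcross of the C57 and FVB backgrounds, had breast cancer, and all carried MMTV-Neu, a transgene that places the Neu proto-oncogene under a mammary tumour virus promoter. Age was not given in the sources used here. The series took mice from both extremes of an ageing grade, and the grade of each mouse was not given in the sources used here. All livers therefore formed 1 group, and no comparison between ageing grades was made. Mice are named by the number in their titles and fall into 4 stretches of numbers, 7 to 79 (8 livers), 84 to 128 (13), 137 to 235 (16) and 253 to 301 (13). The limits of these stretches were found in these data, so levels by stretch are a description without a test.

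Rabggtb encodes the beta subunit of Rab geranylgeranyl transferase, the enzyme that attaches lipid tails to Rab GTPases so that they can sit on membranes and direct vesicle traffic. Its introns hold snoRNAs of the Snord45 family. snoRNAs are short nuclear RNAs that guide methylation or pseudouridylation of ribosomal RNA, and most mouse snoRNAs are cut from the introns of a host transcript after splicing. Many hosts encode ribosomal proteins or translation factors. Gas5, Snhg1, Snhg8 and Snhg12 are hosts without a conserved protein product, and their spliced RNAs are short-lived. The snoRNA is stable once it is wrapped in protein, so host and snoRNA need not have the same level.

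The array measured the members through different probe sets. Rabggtb had 1 probe set of its own and 1 that carried both Rabggtb and Snord45c. Snhg1 and Snhg12 had 1 probe set each. The Gas5 probe set was annotated to Gas5 and Mir5117, and the RefSeq table lists Mir5117 as a synonym of Gas5, so it was taken as Gas5. Snhg8 lay only on a probe set shared with Snora24, and that signal belongs to neither alone. Where along a gene a probe set lies was not given in the sources used here. All 5 members lay at or above the median level of 3.61 that was required for testing.

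On its own probe set, Rabggtb was high in the low animal numbers and low in the middle ones. In animals 7 to 79 its signal ran from 7.91 to 10.14 with a median of 9.16. In animals 84 to 128 it ran from 7.78 to 9.66 with a median of 8.44. In animals 137 to 235 it ran from 4.08 to 7.95 with a median of 6.29, and in animals 253 to 301 from 4.58 to 8.87 with a median of 7.40. Of the 16 livers of animals 137 to 235, 15 lay below the lowest of the 21 livers of animals 7 to 128, and 7 of the 13 livers of animals 253 to 301 did so. Across the limits between stretches, animals 79 and 84 had 8.51 and 8.91, animals 128 and 137 had 8.25 and 6.51, and animals 235 and 253 had 7.17 and 7.26.

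The livers within the later stretches were themselves far apart. The signal lay under 5.5 in 6 livers, those of animals 142, 165, 187, 229, 265 and 267. The last 5 mice, animals 284 to 301, lay between 8.53 and 8.87, within the range of animals 7 to 79. The 8 before them, animals 253 to 282, lay between 4.58 and 7.87. From animals 84 to 128 to animals 137 to 235 the Rabggtb median fell by 2.15, the second largest fall among 11101 features, after that of Serpina1d (−2.25), an alpha-1 antitrypsin gene. Of all features 1.01% fell by more than 0.5 across that limit and 0.973% rose by more than 0.5. From there to animals 253 to 301 the Rabggtb median rose by 1.11, where 0.513% of features rose and 1.03% fell by more than 0.5.

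The other probe set that carries Rabggtb did not have these steps. Its medians were 5.75, 5.95, 5.88 and 6.0 in the 4 stretches in order of number. Over all 50 livers it ran from 5.23 to 6.74, with an SD of 0.28, against an SD of 1.52 for the probe set of Rabggtb alone. Its lowest value was in animal 137 and its highest in animal 64, and the 4 stretches overlapped throughout. The difference of medians across the limit between animals 128 and 137 was −0.07. Within stretches its Pearson r with the other Rabggtb probe set was 0.194, and a rise of 1 in the latter went with 0.05 ± 0.04 (SE), which did not pass the test (limma adjusted p = 0.565). The steps were present in 1 of the 2 probe sets that carry the Rabggtb name. Which transcript each of them reads was not given in the sources used here, so neither signal can be taken as the level of the Rabggtb messenger RNA itself.

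**Figure D1:**
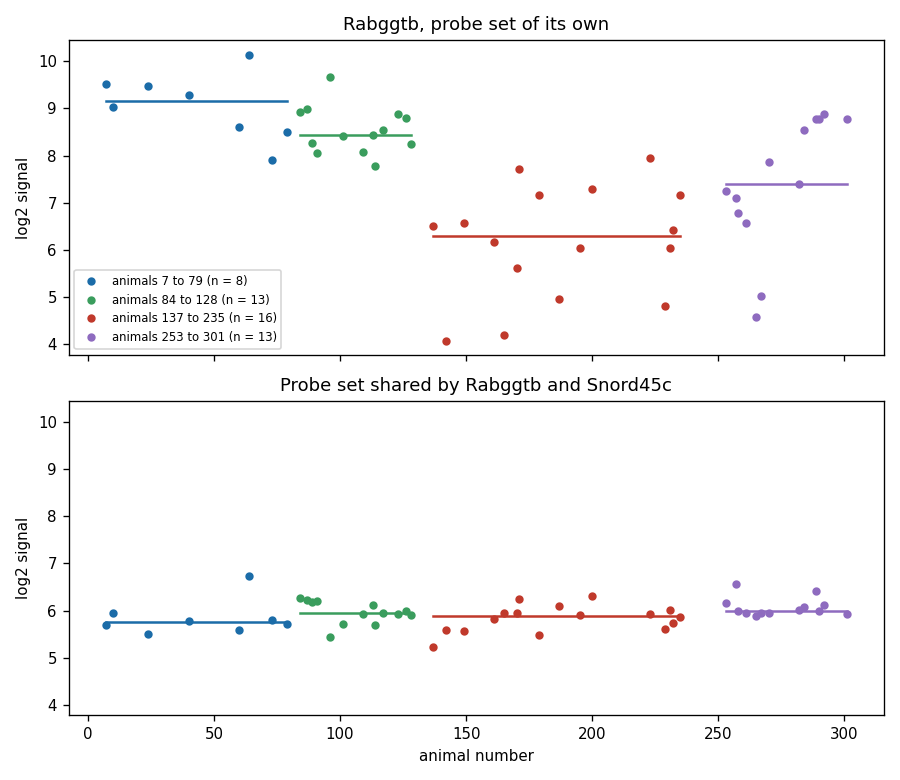
The log2 signal of the 2 probe sets that carry Rabggtb is plotted against the animal number, with 1 point per liver, a colour for each stretch of numbers and a line at the median of each stretch. The upper panel falls from a median of 8.44 in animals 84 to 128 to 6.29 in animals 137 to 235, while in the lower panel, which has the same axis, the medians lie between 5.75 and 6.0.

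The genes most like Rabggtb in its own probe set were snoRNAs. To leave out the steps between stretches, every gene was fitted on the Rabggtb signal together with the stretch. The slope is thus the change in a gene's log2 signal for a rise of 1 in Rabggtb among mice of the same stretch. The fit does not take out the difference, within the last stretch, between animals 253 to 282 and animals 284 to 301. Slopes and values of r within stretches include that difference. Of 11100 features, 21 had a positive slope at an adjusted p under 0.05 (0.189%) and 40 a negative one (0.36%). Of 78 snoRNAs and Cajal body RNAs named on the array 69 reached the level required for testing, and of these 14 had a called positive slope and none a negative one, and their median slope was 0.10 against −0.00051 over all features. Without 4 livers that stand apart, described below, 16 of the 69 were called positive, where 0.234% of all features were called positive, 0.523% negative and 0.757% in either direction. With ranks in place of signals 6 were called. Of the 10 genes with the highest r within stretches 8 had Snord or Snora symbols, beside the U3 gene Rnu3a, and 9 of the 10 most alike over all 50 livers were the same genes.

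Snora44, a snoRNA of the pseudouridylation class that lies in Snhg12, had the highest r. It ran from 5.78 in animal 165 to 10.28 in animal 10. Its r with Rabggtb within stretches was 0.872, with a Spearman rho of 0.861 and r = 0.871 without the 2 livers farthest from the median of Rabggtb. In the separate stretches r was 0.676, 0.586, 0.876 and 0.945, in order of number. Its slope was 0.55 ± 0.05 (SE; limma adjusted p = 2.69e-12). The same livers that were low in Rabggtb were low in Snora44.

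Snord13, a snoRNA with its own promoter that guides acetylation of small subunit ribosomal RNA, had r = 0.848, with rho = 0.804 and r = 0.849 without the same 2 livers. Its signal ran from 7.73 to 10.90, and its slope was 0.47 ± 0.04 (SE; limma adjusted p = 7.67e-11). In the separate stretches r was 0.528, 0.557, 0.875 and 0.932. Snord73b had the most even relation, with r of 0.898, 0.899, 0.881 and 0.914 and a slope of 0.29 ± 0.03 (SE; limma adjusted p = 4.18e-09). Snora73a and Snora73b had slopes of 0.48 ± 0.06 and 0.45 ± 0.07 (SE). Snord71 and Snord104 were less even. In animals 7 to 79 their r was −0.423 and −0.470, and in animals 253 to 301 it was 0.895 and 0.923.

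**Figure D2:**
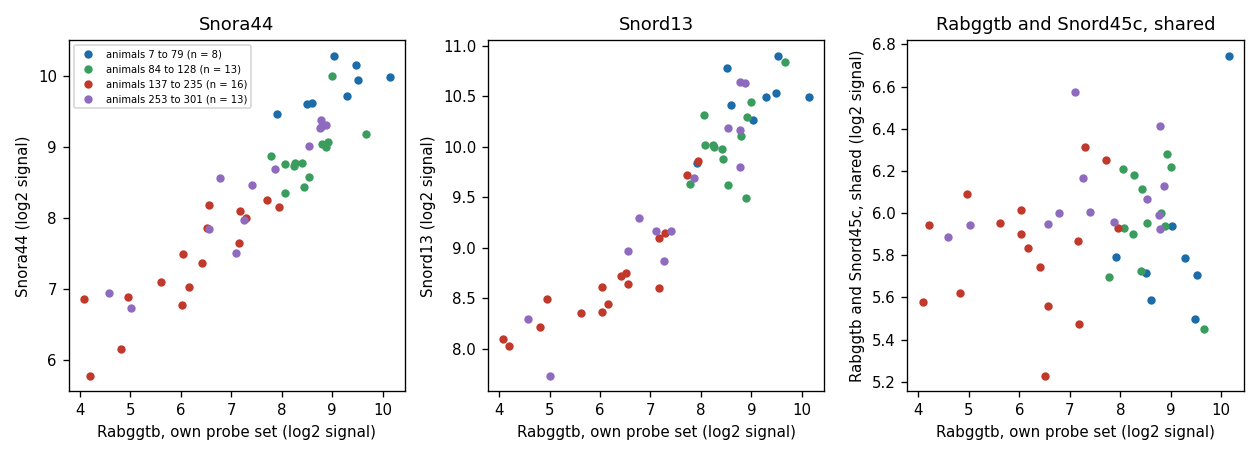
The log2 signals of Snora44, Snord13 and the probe set shared by Rabggtb and Snord45c are plotted against the signal of the Rabggtb probe set, with 1 point per liver and a colour for each stretch. Within stretches r is 0.872 for Snora44 and 0.848 for Snord13, and 0.194 for the shared probe set.

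The remaining genes among the 10 were Rnu3a, a U3 small nucleolar RNA gene, Snora31 and the host gene Snhg17. Rnu3a had a slope of 0.41 ± 0.07 (SE) and Snora31 one of 0.27 ± 0.05 (SE). For Snhg17 the probe sets disagreed in the way those of Rabggtb did. The 2 that followed Rabggtb, with r of 0.679 and 0.684, ran from 6.41 to 9.86 and from 3.21 to 6.84. The third ran from 3.89 to 4.95 and had r = −0.008. The 5 genes with the lowest r were Krtcap2, a subunit of the oligosaccharyltransferase, Mrgpre, Nsun3, an RNA methyltransferase of mitochondria, Higd2a and Uprt, with r between −0.658 and −0.613. Krtcap2 ran from 6.55 to 7.64, with a slope of −0.12 ± 0.02 (SE; limma adjusted p = 0.00155).

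No other gene of Rab prenylation had a called slope on this Rabggtb signal. Of 8 listed genes 5 were tested beside Rabggtb, and none was called. Rabggta, the alpha subunit of the same enzyme, ran from 4.71 to 6.25 with a slope of −0.04 ± 0.03 (SE; limma adjusted p = 0.607). Chm, the escort protein that presents Rabs to the enzyme, ran from 6.14 to 6.93 with a slope of −0.01 ± 0.02 (SE; limma adjusted p = 0.838). Gdi2, which extracts prenylated Rabs from membranes, had a slope of 0.04 ± 0.02 (SE; limma adjusted p = 0.428). The Rabggta medians were 5.48, 5.55, 5.93 and 5.68 over the stretches, so that it was highest where the Rabggtb signal was lowest, with overlapping ranges. Of 26 Rab GTPases tested 1 was called, Rab6a, named after its value was seen, with a slope of −0.12 ± 0.03 (SE; limma adjusted p = 0.0362). Of 7 other prenylation enzymes none was called. Over all features 0.55% were called in either direction, so the absence of calls among so few genes says little about Rab prenylation.

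Of the other host genes tested only Snhg17 had a called slope on Rabggtb within stretches. The slope on Rabggtb was 0.12 ± 0.06 (SE) for Gas5 (limma adjusted p = 0.340), 0.09 ± 0.08 for Snhg1 (0.595), 0.06 ± 0.04 for the probe set shared by Snhg8 and Snora24 (0.549) and 0.04 ± 0.05 for Snhg12 (0.782). Without the 4 livers that stand apart, the slopes of Snhg1 and Snhg12 were −0.00187 and −0.00160, and that of Gas5 was 0.05 ± 0.03 (SE; limma adjusted p = 0.529). Over all livers without the stretch term Gas5 passed, with 0.13 ± 0.04 (SE; limma adjusted p = 0.0140). Of 13 further noncoding hosts tested 1 was called, Snhg17 by the probe sets described above. Of 29 protein-coding hosts, 48 ribosomal protein genes, 16 snoRNP proteins and assembly factors and 9 factors of nonsense-mediated decay none was called, and of the cell type markers tested for liver and other cells none was called either. These counts stand beside 0.55% of all features called in either direction. The median slope was 0.07 over the protein-coding hosts, 0.05 over the 13 further noncoding hosts and 0.05 over the ribosomal protein genes, against −0.00051 over all features. Without the 4 livers these medians were 0.02, 0.0013 and 0.01, against −0.0025. In simulated data, with noise drawn for each gene on its own, 23.5% of genes with a slope of 0.1 were recovered. Smaller slopes, such as these medians, were not simulated. The simulated noise holds no livers that stand apart, so the share recovered in the real data may differ.

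In Snhg12 the signals of host and snoRNAs could be set side by side for a whole gene. The RefSeq table places 4 snoRNAs inside Snhg12, all with probe sets of their own. The host itself had nearly level medians of 5.04, 5.01, 4.96 and 5.12 over the stretches. Snora44 had medians of 9.83, 8.78, 7.43 and 8.57. Snora61 had 8.34, 7.51, 6.61 and 7.18, and Snora16a had 10.44, 9.73, 9.0 and 9.74, so that all 3 were lowest in animals 137 to 235. Snord99, of the methylation class, had 10.98, 10.69, 10.75 and 11.04. Its signal fell into separate sets of livers, described under the other observations. These medians all lie in the upper set, so they say little about its level by stretch, and its slope below pools both sets.

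Within stretches these snoRNAs also differed in how they followed Rabggtb. Snora61 was called, with a slope of 0.27 ± 0.05 (SE; limma adjusted p = 0.00341), whereas Snora16a had 0.11 ± 0.05 (adjusted p = 0.311) and Snord99 had 0.02 ± 0.10 (adjusted p = 0.938). Snora44 and Snora61 had r = 0.608 with each other within stretches. The r of Snora44 with its host was 0.024, and that of Snora61 was 0.540. Snora16a had r = −0.083 with the host. Of the 3 pseudouridylation guides in Snhg12, Snora61 thus had the highest r with the host and Snora44 the highest with Rabggtb.

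**Figure D3:**
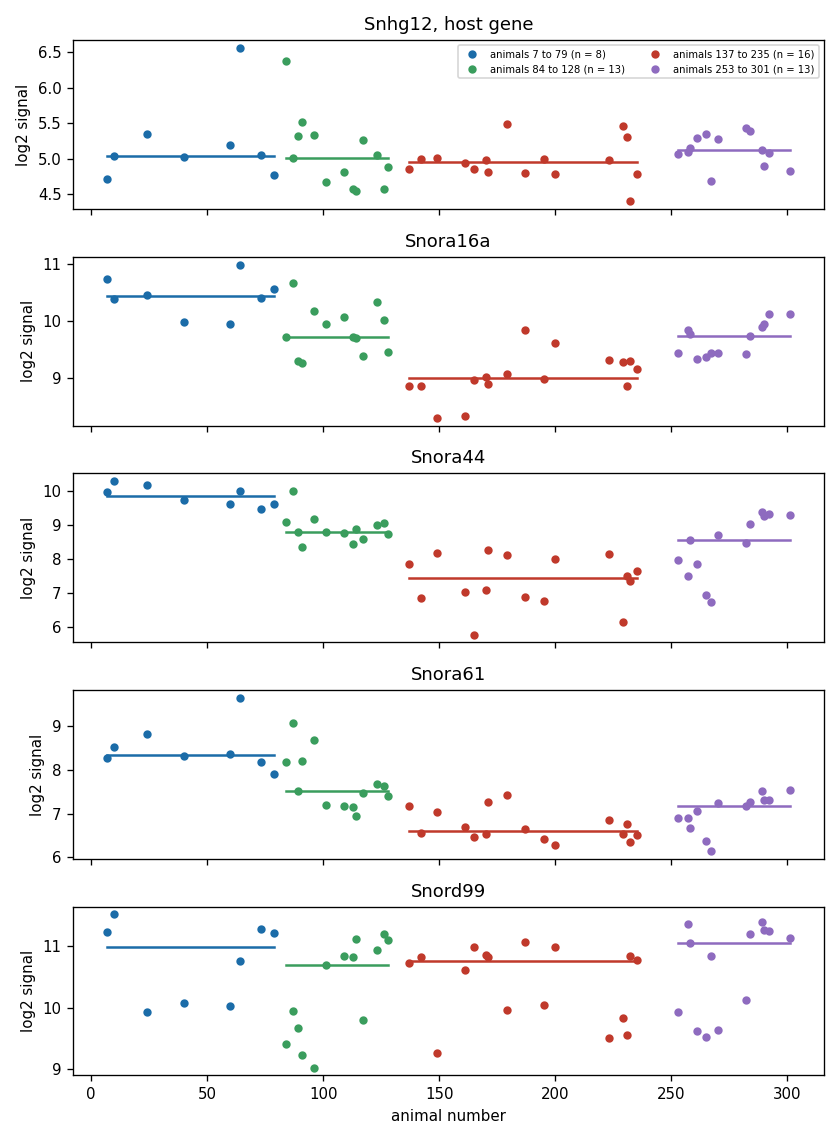
The log2 signals of Snhg12 and of the 4 snoRNAs that lie inside it are plotted against the animal number, each panel with its own axis, with 1 point per liver and a line at the median of each stretch. The medians of Snora16a, Snora44 and Snora61 are lowest in animals 137 to 235, at 9.0, 7.43 and 6.61, while those of Snhg12 stay between 4.96 and 5.12. Those of Snord99, between 10.69 and 11.04, all lie in the upper of its separate sets of livers.

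In Gas5 and Snhg1, 1 snoRNA each had a probe set of its own. Snord47, in Gas5, ran from 9.97 to 11.28, with medians of 11.00, 10.42, 10.33 and 10.74. Its r with Gas5 within stretches was 0.463 and with Rabggtb 0.558, and its slope on Rabggtb was called (0.11 ± 0.02, SE; limma adjusted p = 0.0215). Snord22, in Snhg1, ran from 10.21 to 11.63, with medians of 11.29, 10.58, 10.94 and 11.19, and was thus lowest in animals 84 to 128. Its r with Snhg1 was 0.588 and with Rabggtb 0.416. The other snoRNAs of these hosts, and those in Rabggtb and Snhg8, had no probe set named for them alone.

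Many other snoRNAs also differed in level between stretches. From animals 7 to 79 to animals 84 to 128, 46 of 69 fell by more than 0.5 (1.59% of all features did) and none rose as much (3.17% of all features did). From there to animals 137 to 235, 15 fell and 4 rose, where 1.01% of all features fell and 0.973% rose. At the next limit none fell and 12 rose, where 1.03% of all features fell and 0.513% rose. Rabggtb fell at the first limit by 0.72, which was close to the median snoRNA (−0.75). At the second it fell by 2.15, where the median snoRNA changed by −0.09. The snoRNAs with the highest r with Rabggtb within stretches fell further there than the median snoRNA. These were Snora44 (−1.35), Snord13 (−1.41), Snord73b (−0.74) and Snora73a (−1.13). The labels name no batch, extraction or scan date, and what else differed between stretches was not tested.

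Gas5 and Snhg1 varied little in most livers and were high in a few. Gas5 ran from 4.15 to 5.13 with a median of 4.76 in 46 livers. In the 4 livers whose arrays correlate least with the rest, those of animals 64, 84, 87 and 235, it had 7.21, 5.92, 5.29 and 5.19, above each of the other livers. Snhg1 ran from 4.98 to 6.03 in the 46 and had 8.52, 7.35, 6.46 and 6.07 in these 4, again above each of the others.

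Snhg12 was high in 2 of the 4, with 6.56 in animal 64 and 6.37 in animal 84, against 4.40 to 5.52 in the 46. Animals 87 and 235 had 5.01 and 4.78, in the middle and lower part of that range. The probe set shared by Snhg8 and Snora24 was highest in animal 64, at 7.93, against 6.15 to 7.05 in the 46, and animals 84, 87 and 235 had 6.91, 6.97 and 6.49. Rabggtb was highest in animal 64 too, at 10.14, but animals 87, 84 and 235 stood at places 7, 8 and 34 from the top.

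Marker signals of some cell types lay outside the range of the 46 in some of these livers. The mean signal of 5 hepatocyte markers was 10.62, 10.98 and 10.72 in animals 64, 84 and 235, below the 11.09 to 11.69 of the 46, and 11.20 in animal 87. Of these 5, Ass1 had the widest range over all 50 livers, from 2.99 to 7.08, so it can move the mean most. The mean alone does not show that all 5 markers were lower. Albumin lay between 13.20 and 13.54 in all 50 livers, with the highest value of the whole table, so its steadiness at the top of the array's range says little. Of 5 stellate and fibroblast markers the mean was 8.02 in both animals 64 and 235, above the 6.62 to 7.67 of the 46. The mean of 5 Kupffer cell markers was 10.48 in animal 235 and 6.28 in animal 84, above and below the 6.37 to 8.56 of the 46. Endothelial, cholangiocyte, neutrophil, pancreatic acinar and mammary means lay within the range of the 46 in all 4. High pancreatic acinar and mammary means, up to 11.32 and 6.47, were among the 46. The erythroid marker Slc4a1, the only 1 of 4 named on the array, was 10.92 in animal 64 (3.63 to 8.49). In bulk tissue, fewer cells of a type and less RNA per cell cannot be told apart. The part of these shifts in the host gene levels was not tested.

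**Figure D4:**
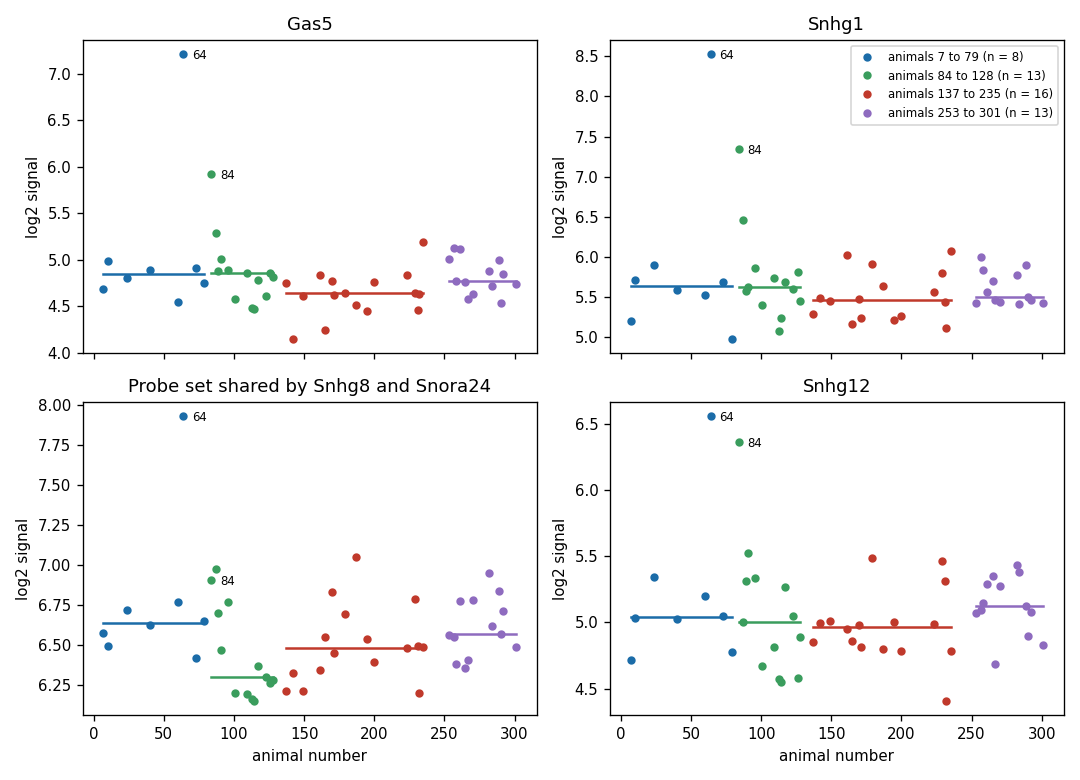
The log2 signals of Gas5, Snhg1, the probe set shared by Snhg8 and Snora24, and Snhg12 are plotted against the animal number, with 1 point per liver and a line at the median of each stretch; animals 64 and 84 are marked. Animal 64 is the highest liver in all 4 panels, and animal 84 is second for Gas5, Snhg1 and Snhg12.

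The noncoding hosts rose and fell together from liver to liver, and less closely without the 4 livers. Over all 50 livers the 6 pairs among them had r between 0.671 and 0.896 and rho between 0.338 and 0.651. Without the 4 livers r lay between 0.205 and 0.552. Gas5 and Snhg1 had r = 0.896 over all livers and 0.491 without the 4. Snhg1 and Snhg12 had 0.769 and 0.552. These pairs share the arrays they were measured on, and the correlations are given as a description.

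Every gene was then fitted on Snhg1 in the same way, a fit added after the data were seen. The slope was 0.68 ± 0.05 (SE) for Gas5 (limma adjusted p = 8.58e-15), 0.54 ± 0.07 for Snhg12 (2.82e-09) and 0.38 ± 0.05 for the probe set shared by Snhg8 and Snora24 (1.13e-07). Over all 50 livers 28.7% of 11100 features had a called positive slope and 23.5% a negative one, 52.1% in all, so a call says little about these hosts in particular. Without the 4 livers 5.32% were called positive and 7.89% negative. Gas5 and Snhg12 then still passed, with 0.34 ± 0.10 (limma adjusted p = 0.0227) and 0.58 ± 0.14 (0.00474), and the shared probe set did not, with 0.23 ± 0.12 (0.202). Rabggtb on its own probe set was not called on Snhg1 with or without them (adjusted p = 0.300 and 0.983). The probe set of Rabggtb and Snord45c had a slope of 0.23 ± 0.06 over all livers (limma adjusted p = 0.00172), 0.11 ± 0.09 without animal 64 alone (0.369) and −0.03 ± 0.14 without the 4 (0.907).

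The genes that followed Snhg1 in the 46 livers included other hosts and the translation machinery. Over all features 5.32% were called positive there and 7.89% negative. Of 13 further noncoding hosts tested, 4 were called positive and none negative. They were Snhg5, with a slope of 0.57 ± 0.09 (SE; limma adjusted p = 9.48e-05), Zfas1 with 0.60 ± 0.15, Epb41l4aos with 0.48 ± 0.13 and Snhg3 with 0.78 ± 0.23. Of 29 protein-coding hosts tested 16 were called positive and 2 negative. Among them were Nop56 and Nop58, core proteins of the methylation guide snoRNPs, with slopes of 0.70 ± 0.15 and 0.67 ± 0.15 (SE), Rps12, a small subunit ribosomal protein, with 0.57 ± 0.10, and Eef2, the elongation factor, with 0.25 ± 0.07. The negative ones were Eif4a2, with −0.32 ± 0.10, and Cwf19l1, with −0.70 ± 0.15. At 2 of 29 they are near the share called negative over all features. The lists overlap, so their counts are not separate. Several called protein-coding hosts, Rps12 among them, count again as ribosomal protein genes below, and Nop56 and Nop58 count again as snoRNP proteins.

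Of 48 ribosomal protein genes 22 were called positive and none negative, with a median slope of 0.28 against 0.00153 over all features. Among all 53 tested genes with the Rpl or Rps prefix, 5 of which are no ribosomal proteins, 22 were positive and 1 negative, the retrogene Rps23rg1 (−0.75 ± 0.22, SE). Of 16 snoRNP proteins and assembly factors 4 were positive, of 9 nonsense-mediated decay factors 1, and of 26 Rab GTPases none, with 1 negative. In these 46 livers 5.32% of all features were positive and 7.89% negative. The single calls among decay factors and Rab GTPases thus say little about these lists. Of the 69 snoRNAs themselves 10 were positive and none negative. Over all 50 livers, where 28.7% of all features were positive and 23.5% negative, 9 noncoding hosts, 24 protein-coding hosts and 40 ribosomal protein genes were positive. Of the snoRNAs 24 were positive and 8 negative there. In the 46 livers the cholangiocyte markers Krt7 and Sox9 and the fibroblast collagen Col1a1 were called positive as well, with slopes of 0.59 ± 0.20, 0.86 ± 0.26 and 0.93 ± 0.25 (SE). These are the 2 cholangiocyte markers tested and 1 of 5 stellate and fibroblast markers. The other stellate and fibroblast markers were not called and differed in direction. Lrat and Reln had slopes of −0.52 ± 0.23 and −0.32 ± 0.18 (SE), and Col3a1 and Dcn had 0.18 ± 0.29 and 0.10 ± 0.14. The part of these cell types in the relation was not tested.

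**Figure D5:**
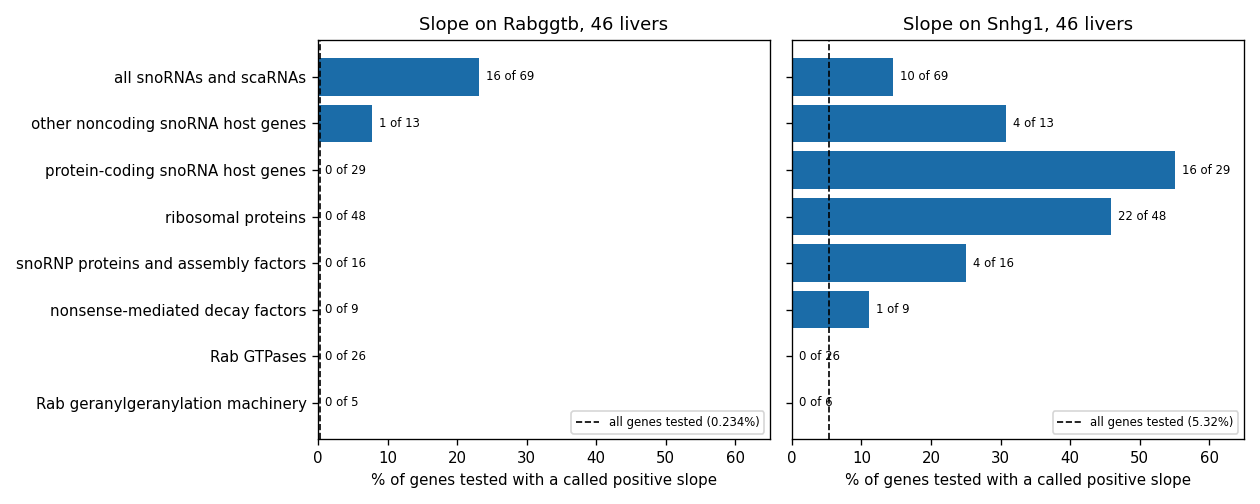
Bars give the share of the genes tested in each of 8 lists, in percent, that had a called positive slope on Rabggtb (left) or on Snhg1 (right) in 46 livers, with the number called and tested beside each bar and the share over all features as a dashed line. Of the 8 lists plotted, snoRNAs have the highest share on the left, with 16 of 69, and protein-coding hosts on the right, with 16 of 29, against 0.234% and 5.32% of all features. The lists overlap, and a gene in several lists counts in each of their bars.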

How the data were processed

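Per the submitters' processing notes, the authors made the deposited log2 signals with RMA in Affymetrix Expression Console 1.4.1, from 100 ng of total RNA per array per the labels' protocols. RMA subtracts background, makes the arrays share 1 distribution of signals and combines the probes of a set, so levels of different probe sets cannot be set against each other. The extraction protocol speaks of purified cells, whereas the labels name liver. Of 41345 probe sets 23521 carried 1 symbol; 22 of 1814 with several were resolved through gene IDs in a RefSeq table (GRCm38.p6), which was used for names and for which snoRNAs lie in which host. The probe set with the highest median stood for a gene. Array medians lay between 3.27 and 3.34.

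Genes were fitted on Rabggtb, or on Snhg1, and the stretch with limma 3.58.1 (lmFit, eBayes with trend, R 4.3.3) and adjusted by Benjamini-Hochberg over 11100 features. Data of 11100 features were simulated for the slope on Rabggtb, with normal noise drawn for each gene on its own. Of 200 changed genes 23.5%, 81.0% and 99.5% were recovered at slopes of 0.1, 0.2 and 0.4. The 4 livers that stand apart had a median r of 0.794 to 0.932 with the other arrays, against at least 0.944 for the rest. The ribosomal protein list leaves out 5 genes that share the Rps prefix but are no ribosomal proteins (kinases, a binding protein, a retrogene), a correction made after their values were seen. The p-values treat mice as independent, and relatedness was not given. Members, lists and the stretches were chosen with earlier results of these data known; the genes named for Snhg1 were chosen after their values were seen. Otherwise the rule allowed the 10 genes most and 5 least like Rabggtb, the Rab prenylation list, hosted snoRNAs, the extreme steps and up to 4 genes per list. Python 3.11.15, pandas 2.3.3, numpy 2.4.6, scipy 1.17.1 and matplotlib 3.10.9 were used.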

Additional observations from a re-analysis of the deposited data

How the results depend on the processing

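The alternatives were all genes without a level filter, centred arrays, ranks, the mean of a gene's probe sets, no stretch term, the first array component as a covariate, and the fit without 4 livers or without each of them, the last chosen after seeing the data. Without the stretch term, which brings the steps between stretches back in, 635 features rose and 699 fell with Rabggtb, and 44 snoRNAs rose. Gas5 then passed, with a slope of 0.129. With ranks 24 features fell with Rabggtb and 6 snoRNAs rose. The slopes on Rabggtb of Snhg1 and Snhg12 were below 0 without the 4 livers (−0.00187 and −0.00160) and with the first component (−0.0215 and −0.0145). Features rising and falling with Snhg1 were 591 and 876 without the 4 livers, 904 and 953 with the first component, and 1425 and 1730 with ranks. The slope on Snhg1 of Rabggtb was −0.0329 without the 4 livers and −0.267 with the first component, and that of the probe set shared with Snord45c was −0.0344 without the 4 livers. Other alternatives kept direction and side of the threshold, apart from 4 lost calls on Snhg1 for shared probe sets. The cause of these shifts was not tested. Signals of Gas5, Snhg1 and Snhg12 lie near the lower part of the array's range, which limits small differences.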

Other observations

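Snord99, the methylation guide inside Snhg12, fell into separate sets of livers, 20 between 9.03 and 10.12 and 30 between 10.60 and 11.51. Each stretch of animal numbers held both kinds, with 3, 6, 6 and 5 livers in the lower set. The 8 livers with the lowest Snhg12 signal, from 4.40 to 4.78, all had Snord99 in the upper set, between 10.69 and 11.23. Of the 8 livers with the highest Snhg12 signal 6 had Snord99 in the lower set. Animal 91 had 5.52 for Snhg12 and 9.24 for Snord99, animal 179 had 5.49 and 9.96, animal 229 had 5.47 and 9.84, animal 282 had 5.43 and 10.12, animal 265 had 5.35 and 9.53, and animal 84 had 6.37 and 9.41. The other two, animals 64 and 284, had 6.56 and 5.38 for Snhg12 and 10.75 and 11.19 for Snord99. Because the snoRNA falls into separate sets no pooled r is given. Within the sets r between host and snoRNA was −0.265 in the lower and 0.021 in the upper one, with rho of −0.211 and 0.284. These values were looked at after the data were seen, the relation was not tested, and the genotype of the mice at this locus was not analysed here.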
